A study of Selaginella kraussiana with 4 samples.

Results

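A set of 898 loci had a higher transcript level in both growing tips of the spikemoss *Selaginella kraussiana*, the rhizophore tip and the shoot tip, than in its leaf and stem. They were found among 26055 merged loci of at least 300 bp, of which they are 3.45%. Loci of the 4 tables that shared at least 1 bp on a contig (a stretch of the draft genome) were merged, and each library was given the sum of its FPKM there. FPKM is a number of sequenced fragments scaled to transcript length and library size. A locus belonged to the set if the lower log2(FPKM + 1) of the rhizophore and seedling libraries was at least 1 above the higher one of the leaf and stem libraries, and if the rhizophore and seedling values lay within 1 of each other. The difference in the first condition is called the separation below. The loci were thus chosen by the FPKM of these same 4 libraries, so the separations are descriptions and were not tested.

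RNA was taken from plants grown at 26 °C with 16 h of light and 8 h of dark, and each of the 4 tissues gave 1 sequenced library, with no treatment named in the labels. The tip libraries carry the labels rhizophore and seedling, and the libraries they were set against carry the labels leaf and stem. The methods of the study list the tissues as rhizophore tip, shoot tip, microphyll (the small leaf of a lycophyte) and stem. The other names match, which leaves the seedling library for the shoot tip, and it was read so here. If it was made from whole seedlings, it also held leaf and stem tissue, and the labels alone do not decide this. The number of plants behind a library was not given in the sources used here. No tissue was replicated, so no difference has a replicate check. A deposited interval, read here as 95%, covers the error within a library and not the variation between plants.

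Plants grow at their tips, where an apical meristem keeps dividing and lays down the cells that later mature behind it. In *Selaginella* the shoot tip forks and leaves a small angle meristem at each fork. The rhizophore, a leafless axis that grows downward and bears the roots, arises from this meristem. Dividing and expanding cells generally make up more of such tips than of a mature microphyll or stem, which hold differentiated photosynthetic and vascular tissue. The maturity of the sampled leaf and stem was not given, and cell composition was not measured. The tables carry no gene names, strands or transcript structures, so no locus could be given a function and the name growing tips could not be checked against marker genes. In RNA from whole tissue, a larger share of cells of one type and more transcript per cell cannot be told apart.

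The tables listed 29549 loci for the rhizophore, 30393 for the seedling, 30999 for the leaf and 28860 for the stem. If the deposited intervals span 2 Poisson standard deviations on each side, their widths correspond to totals, in units of 1e6 fragments, of between 47.2 (stem) and 58.0 (seedling). The summed FPKM over the merged loci of at least 300 bp was 1144440 in the rhizophore, 1132610 in the seedling, 1108190 in the leaf and 1195500 in the stem, so the libraries were on close scales at this length. Over all these loci the rhizophore was at least 1 above the leaf on the log2(FPKM + 1) scale in 24.8% and above the stem in 16.3%, and the seedling above the leaf in 20.1% and above the stem in 14.9%.

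Most of the 898 loci passed the condition by a moderate margin. The median separation was 1.57 on the log2(FPKM + 1) scale, and 399 loci (44.4%) lay under 1.5. A separation of at least 2 was held by 295 loci, of at least 3 by 122 and of at least 4 by 52. These are 1.13%, 0.468% and 0.2% of all merged loci of at least 300 bp. The number of raised loci itself depended on the processing, with 493 for a pseudocount of 5, 185 for FPKM rescaled to TPM over all loci and 529 for implied fragments scaled to the library total. The lower of the rhizophore and seedling values had a median of 13.4 FPKM and the higher of the leaf and stem values a median of 2.40 FPKM. In 509 loci the lower tip value was at least 10 FPKM, in 108 at least 100 FPKM and in 8 at least 1000 FPKM. Together the loci held 6.53% of the summed FPKM of the rhizophore and 5.74% of that of the seedling, against 1.12% in the leaf and 1.24% in the stem.

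**Figure D1:**
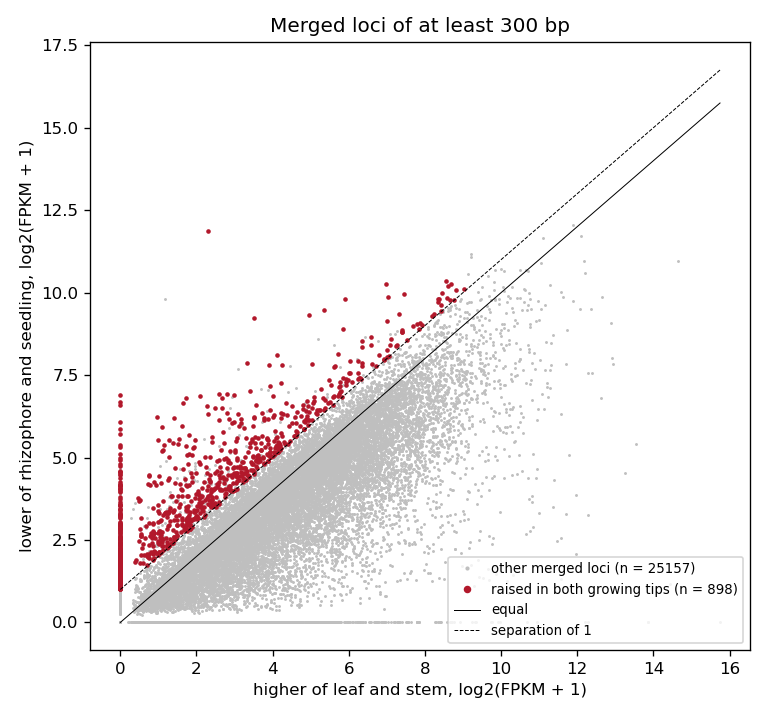
The lower of the rhizophore and seedling values (vertical) against the higher of the leaf and stem values (horizontal), both as log2(FPKM + 1), with a point for each of 26055 merged loci. The 898 loci raised in both growing tips (red) lie on or above the dashed line of separation 1, and the column of points at 0 on the left holds loci not listed in either leaf or stem.

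Listing outside the tips divided the loci into unlike groups. By construction all 898 were listed in the rhizophore and the seedling. Of these, 496 (55.2%, against 71.5% of all merged loci) were listed in leaf and stem as well, 93 in the stem and not the leaf, 49 in the leaf and not the stem, and 260 in neither. Of all 26055 merged loci, listed in the tips or not, 1738 were listed in the stem and not the leaf. Another 2382 were listed in the leaf and not the stem, and 2070 in neither. A locus that is not listed was given 0 FPKM. Such a 0 says that no transcript was reported at the place, while reads may still have fallen there. The loci listed in all 4 libraries were the most abundant, with a median lower tip value of 29.8 FPKM and a median length of 1533 bp. Those listed in 3 libraries had 8.50 FPKM and 769 bp, and those listed in neither leaf nor stem had 2.63 FPKM and 517.5 bp. Of the last group, 144 of 260 had a lower tip value under 3 FPKM, so their separation rests on low levels.

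To weigh listing against depth, leaf and stem were each set at no less than the FPKM that 11 fragments would have there. This was the smallest number of fragments that the intervals commonly implied, and it was the same in the 4 libraries. It came from listed loci, so it sets no upper limit on the reads at a place that is not listed. With this floor and without a pseudocount, 737 of the 898 loci (2.83% of all merged loci) kept a log2 ratio of at least 1. They comprised 481 of the 496 loci listed in all 4 libraries, 125 of the 142 listed in 3 and 131 of the 260 listed in 2. For the remaining loci the floor, which rests on the width of the tip intervals, left no difference of this size. A wide interval need not mean low depth. On contig 077082 from 243, for example, the seedling interval of 0 to 495 FPKM implied 0.0188 fragments, while the rhizophore interval implied 1400.2. Among the 496 loci listed in all 4 libraries, 476 had lower bounds in both tips above the upper bounds in leaf and stem, which is 2.55% of the 18635 merged loci listed in all 4. Without any requirement on size, 12% of these 18635 had intervals that lay apart in this direction.

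**Figure D2:**
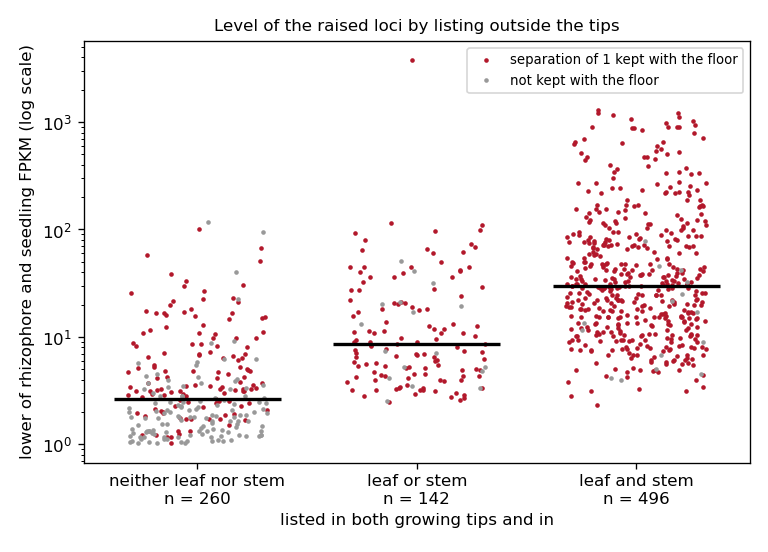
The lower of the rhizophore and seedling FPKM (vertical, log scale) for each of the 898 loci, by whether the locus was listed in neither leaf nor stem, in one of them or in both, with medians of 2.63, 8.50 and 29.8 FPKM (bars). Red points kept a log2 ratio of at least 1 when leaf and stem were set at no less than 11 fragments, and grey points did not; most grey points are low loci of the first group.

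The span over which a locus was assembled also differed between libraries, and FPKM depends on it. In 456 of the 898 loci each library had at most 1 locus and every listed locus covered at least 80% of the merged length (50.8%, against 53.2% of all merged loci). These are called span-matched here, and 198 of them were listed in all 4 libraries, of which 196 had intervals that lay apart. In the opposite case, 85 of the 898 (9.47%) owed more than 50% of the FPKM of a tip library to loci shorter than 300 bp, where FPKM rests on a small divisor. Their median separation was 1.79, against 1.56 for the other 813. The share of such loci among all merged loci is not given here, so whether they are more common in the set is not known. Both kinds of locus occurred among the largest separations and are described apart.

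The span-matched loci with the largest separations among those listed in all 4 libraries were chosen for description after their values had been seen. On contig 042922 from 1 to 495 the level was 152 FPKM in the rhizophore (interval 143 to 160) and 110.5 FPKM in the seedling (104 to 117), against 2.28 FPKM in the leaf (1.09 to 3.46) and 1.79 FPKM in the stem (0.80 to 2.78). The lower tip value was 48.5 times the higher of leaf and stem, and the leaf and stem intervals overlapped each other. The leaf and stem values rested on 14.7 and 13.0 fragments, which limits how well the ratio is known.

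The locus on contig 073621 from 1 to 737 was listed over nearly the same span in each library, with the shortest covering 98.4% of it. Its level was 243 FPKM in the rhizophore (231 to 255) and 234 FPKM in the seedling (222 to 245), against 0.66 FPKM in the leaf (0.34 to 0.98) and 8.97 FPKM in the stem (7.69 to 10.2). The tips could not be told from each other by their intervals, while stem and leaf differed by 2.58 on the log2(FPKM + 1) scale. Contig 036003 from 1 to 673 showed the same order with 128 FPKM in the rhizophore (123 to 133) and 130.2 FPKM in the seedling (125 to 135), against 0.72 FPKM in the leaf (0.28 to 1.15) and 9.64 FPKM in the stem (8.15 to 11.1). Both loci thus had close levels in the 2 tips, an intermediate level in the stem and the lowest level in the leaf. The leaf values rested on only 17 fragments for contig 073621 and 11 for contig 036003.

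The order of leaf and stem was turned round on contig 003124 from 357 to 2285. It had 45.8 FPKM in the rhizophore (44.2 to 47.4) and 32.4 FPKM in the seedling (31.2 to 33.6), against 2.37 FPKM in the leaf (2.01 to 2.73) and 1.22 FPKM in the stem (0.96 to 1.49). On contig 065947 from 1 to 400, the rhizophore had 71.6 FPKM (65.4 to 77.7) and the seedling 67.1 FPKM (61.5 to 72.7), against 4.59 FPKM in the leaf (3.27 to 5.92) and 6.91 FPKM in the stem (5.08 to 8.73). Here the intervals overlapped between the tips and also between leaf and stem, so that only the difference between the 2 pairs stood out.

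Among all loci listed in the 4 libraries, the largest separation, 5.73, was on contig 061868 from 1083 to 3598. The level was 993 FPKM in the rhizophore (949 to 1036) and 604 FPKM in the seedling (599 to 609), against 5.77 FPKM in the leaf (0 to 15.3) and 10.4 FPKM in the stem (4.51 to 46.2). Several transcripts of unlike span were assembled here. The rhizophore value was mostly that of a locus from 1934 to 2865, with 857 FPKM, and in the stem a locus over a similar stretch, from 2032 to 2828, had 4.97 FPKM (3.95 to 5.99). The wide leaf interval leaves the ratio to the leaf poorly known, but its upper bound lay far below both tips.

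A further 3 loci had separations close to 5. On contig 095041 from 5189 to 6072 the level was 99.0 FPKM in the rhizophore and 156 FPKM in the seedling, against 0.69 FPKM in the leaf and 2.15 FPKM in the stem. Contig 062207 from 14 to 905 had 92.9 FPKM in the rhizophore and 59.5 FPKM in the seedling, against 0.97 FPKM in the leaf and 1.12 FPKM in the stem. Contig 043580 carried a locus from 3454 to 6886 with 72.1 FPKM in the rhizophore and 88.5 FPKM in the seedling, against 1.09 FPKM in the leaf and 1.68 FPKM in the stem. In each of these the intervals of both tips lay above those of leaf and stem. The summed seedling value exceeded that of the rhizophore on contigs 095041 and 043580 but not on contig 062207. On contig 043580 the seedling sum joined 2 loci, with 46.9 FPKM from 3734 to 5854 and 41.6 FPKM from 5113 to 6886. Each was below the single rhizophore locus from 3454 to 5980, so the seedling excess there came from the summing.

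**Figure D3:**
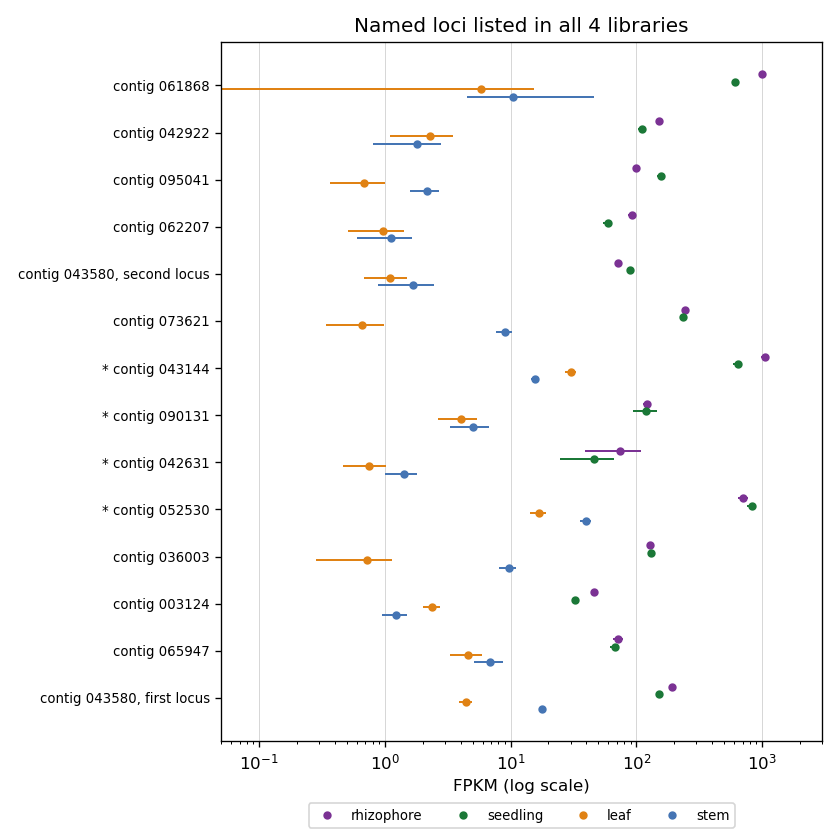
FPKM (horizontal, log scale) of 14 named loci in the rhizophore, seedling, leaf and stem libraries, with deposited intervals as lines, ordered by separation from 5.73 at the top to 3.03 at the bottom. A line that reaches the left edge has a lower bound of 0, and an asterisk marks the loci in which more than 50% of the FPKM of a tip came from loci shorter than 300 bp. Tip values of 32.4 FPKM or more stand to the right of every leaf and stem value of the same locus.

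Other large separations came from short tip loci. On contig 043144 from 1 to 1168 the rhizophore locus covered 240 bp with 1052 FPKM and the seedling locus 236 bp with 640.5 FPKM, whereas the leaf locus covered 617 bp with 30.0 FPKM and the stem locus 1168 bp with 15.6 FPKM. The intervals implied 1052 fragments in the rhizophore and 532 in the seedling, against 416 in the leaf and 655 in the stem. In fragments the seedling was thus not above the stem, although its FPKM was far higher. Contig 052530 from 1 to 420 was alike, with 167 bp and 711 FPKM in the rhizophore and 160 bp and 828 FPKM in the seedling, against 420 bp and 16.7 FPKM in the leaf and 418 bp and 39.8 FPKM in the stem.

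The largest separation of all, 9.57 on contig 077910 from 662 to 968, was of this kind. Its 5156 FPKM in the rhizophore and 3758 FPKM in the seedling were mainly those of a locus of 100 bp and 98 bp, which rested, together with a second short locus, on 63.4 and 35.0 fragments. The leaf had 3.93 FPKM over 307 bp from 25 fragments, and nothing was listed in the stem. On contig 042631 from 1 to 1029 the rhizophore had 74.4 FPKM and the seedling 45.7 FPKM, of which 99.2% and 97.1% came from a locus of 191 bp and 200 bp, against 0.74 FPKM in the leaf and 1.41 FPKM in the stem. The long parts of this merged locus were at 0.60 FPKM in the rhizophore and 1.32 FPKM in the seedling, on the level of leaf and stem.

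Contig 098042 from 11311 to 13121 shows what such a short piece does to the sum. A piece of 106 bp had 2181 FPKM in the rhizophore and one of 109 bp had 1287 FPKM in the seedling, against none in the leaf and one of 121 bp with 350 FPKM in the stem. The long piece, of at least 1509 bp, had 30.0 FPKM in the rhizophore and 18.7 FPKM in the seedling, against 24.3 FPKM in the leaf and 26.0 FPKM in the stem, and so was not raised in both tips. Contig 084219 from 36 to 390 differed in that the rhizophore locus was long, with 1222 FPKM over 350 bp. The seedling had 1886 FPKM over 154 bp, against 125 FPKM over 355 bp in the leaf and 48.6 FPKM over 343 bp in the stem. On a span like those of leaf and stem only the rhizophore value is available, and it was well above both. Contig 090131 from 1 to 348 had 121 FPKM over 348 bp in the rhizophore and 22.8 FPKM over 347 bp in the seedling, against 4.04 FPKM in the leaf and 4.99 FPKM in the stem. A second seedling locus of 279 bp added 97.0 FPKM. Without that locus the tips would have lain more than 1 apart, so its place in the set rests on the short locus.

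Loci not listed in leaf or stem held the highest separations after contig 077910. Contig 096866 from 1 to 1302 had 104 FPKM in the rhizophore (95.9 to 112) and 102 FPKM in the seedling (97.0 to 107), which rested on 1632 and 1720 fragments. With leaf and stem at 11 fragments its log2 ratio was still 6.99. Its rhizophore value summed a locus of 1302 bp with 55.1 FPKM and one of 540 bp inside it with 48.9 FPKM. On the full span the rhizophore thus had 55.1 FPKM, against 102 FPKM in the seedling. The locus on contig 078898 from 640 to 1674 had 74.8 FPKM in the rhizophore and 66.6 FPKM in the seedling, with a log2 ratio of 6.34 over the floor. Contig 043440 from 874 to 2978 and contig 063724 from 556 to 3003 were of near-complete span in both tips. Chosen after their values had been seen, they had 57.7 and 21.6 FPKM in the rhizophore and 94.9 and 24.2 FPKM in the seedling. Their log2 ratios over the floor were 6.62 and 6.21. For these 4 loci the difference was large if leaf and stem held at most 11 fragments there. Whether they did was not shown, since the floor came from listed loci and reads may have fallen at places not listed.

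For the other loci of this kind that the rule named, the floor left no such difference. Contig 073145 from 49 to 399 had 119 FPKM in the rhizophore and 130.5 FPKM in the seedling with intervals that imply only 14 and 37.6 fragments, and its log2 ratio over the floor was 0.27. Contig 091737 from 587 to 916 had 127 FPKM in the rhizophore and 95.1 FPKM in the seedling, with implied numbers of 14 and 11 fragments and a log2 ratio of -0.30. These intervals are wide for the level, since the locus of similar length and level on contig 090131 implied 902 fragments in the rhizophore. How much of the separations of 6.90 and 6.59 is a difference in level was not determined.

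Of the 6 loci with the highest lower tip values, 3 had no tip locus shorter than 300 bp, and their separations lay between 1.09 and 1.58. Contig 038098 from 19 to 547, covered over similar spans in each library, had 1533 FPKM in the rhizophore (1509 to 1557) and 1169 FPKM in the seedling (1149 to 1190), against 374 FPKM in the leaf (363 to 385) and 391 FPKM in the stem (379 to 403). Its lower tip value was 2.99 times the higher of leaf and stem, on at least 4143 fragments in each library. Contig 097087 from 58 to 904 had 1262 FPKM in the rhizophore and 1110 FPKM in the seedling, against 436 FPKM in the leaf and 520.4 FPKM in the stem. The tip loci of contig 097087 were shorter, 518 bp in the rhizophore and 653 bp in the seedling against 842 bp in the leaf and 838 bp in the stem. Its implied fragments scaled to the library total were no higher in the rhizophore than in the stem. Its separation was 0.98 with median-of-ratios factors and 0.04 under TPM, where that of contig 038098 was 0.60. On contig 046155 from 1 to 3679, loci of between 555 and 603 bp had 2153 FPKM in the rhizophore and 1218 FPKM in the seedling, against 396 FPKM in the leaf. In the stem only a locus of 3176 bp was listed there, with 68.2 FPKM, so the stem value is not on the same span.

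The longest merged loci joined several transcripts. Contig 044157 from 30 to 15619 summed 6 loci to 255 FPKM in the rhizophore and 5 loci to 229 FPKM in the seedling, against 2 loci with 31.6 FPKM in the leaf and 1 locus with 31.0 FPKM in the stem. More than 50% of both tip values came from a single stretch of under 1000 bp, with 154 FPKM from 5487 to 6467 in the rhizophore and 130 FPKM from 5500 to 6384 in the seedling. Over the merged locus the intervals implied 5109 fragments in the rhizophore and 6229 in the seedling, against 2950 in the leaf and 3550 in the stem. The excess of the tips was thus smaller in fragments than in FPKM, which was summed over more loci in the tips. Contig 070455 from 5839 to 17224 had 73.4 FPKM in the rhizophore and 39.7 FPKM in the seedling, against 0.62 FPKM in the leaf and 2.31 FPKM in the stem, and the summed seedling interval was wide (27.4 to 264.9). The next merged locus before it, from 3701 to 5700, had 41.2 FPKM in the rhizophore and 35.1 FPKM in the seedling, against 28.5 FPKM in the leaf and 26.0 FPKM in the stem, so at this place the leaf and stem values were low only on one side of the gap. The other long loci, on contigs 099834 from 1 to 10808 and 065210 from 335 to 9681, had lower separations of 1.57 and 1.14.

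Within the limit of 1 that the rule set, the tips were no closer in the set than elsewhere. Of the 898 loci, 611 (68.0%) had rhizophore and seedling values within 0.5 on the log2(FPKM + 1) scale, against 67.8% of the 16123 merged loci of at least 300 bp that were listed in both tips and lay within 1. The rhizophore was higher in 510 loci (56.8%) and the seedling in 388, and the median difference of rhizophore minus seedling was 0.08. The rhizophore was higher in 53.1% of those 16123 loci. With FPKM rescaled to TPM the share in the set was 42.7% of 185 loci, so this direction depended on the scaling. The intervals of the tips lay apart in 245 loci with the rhizophore higher and in 161 with the seedling higher. Over all 26055 merged loci, where the tip difference has no limit, the counts were 8291 and 7538. Without the limit on the tip difference the set would have held 1161 loci (4.46%). The additional 263 leaned the same way, 179 with the rhizophore higher and 84 with the seedling higher. The same split over all merged loci with tips more than 1 apart is not given here.

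The order of leaf and stem was not used by the rule. Among the 496 loci listed in all 4 libraries the stem was higher than the leaf in 342 (69.0%), against 49.4% of the 18635 merged loci listed in all 4, and the median of stem minus leaf was 0.27, against -0.01. In the 198 span-matched loci the share was 73.7%, against 49.6% of 8769. The intervals of stem and leaf lay apart with the stem higher in 203 of the 496 loci (40.9%, against 34.8% of the 18635) and with the leaf higher in 77 (15.5%, against 35.8%). Over the whole set, stem exceeded leaf by at least 1 on the log2(FPKM + 1) scale in 155 loci (17.3%, against 18.7% of all merged loci) and leaf exceeded stem by as much in 63 (7.02%, against 18.8%). The stem was therefore more often the nearer of the 2 to the tips. Over all merged loci, too, the tips were at least 1 above the leaf more often than above the stem. The shares were 24.8% against 16.3% for the rhizophore and 20.1% against 14.9% for the seedling. How far the order of leaf and stem is particular to the set was not tested. The share over the whole set, 48.4% with the stem higher against 44.0% of all merged loci, includes the 260 loci at 0 in both. The leaf was higher in 22.6% of the set, against 48.0% of all merged loci.

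**Figure D4:**
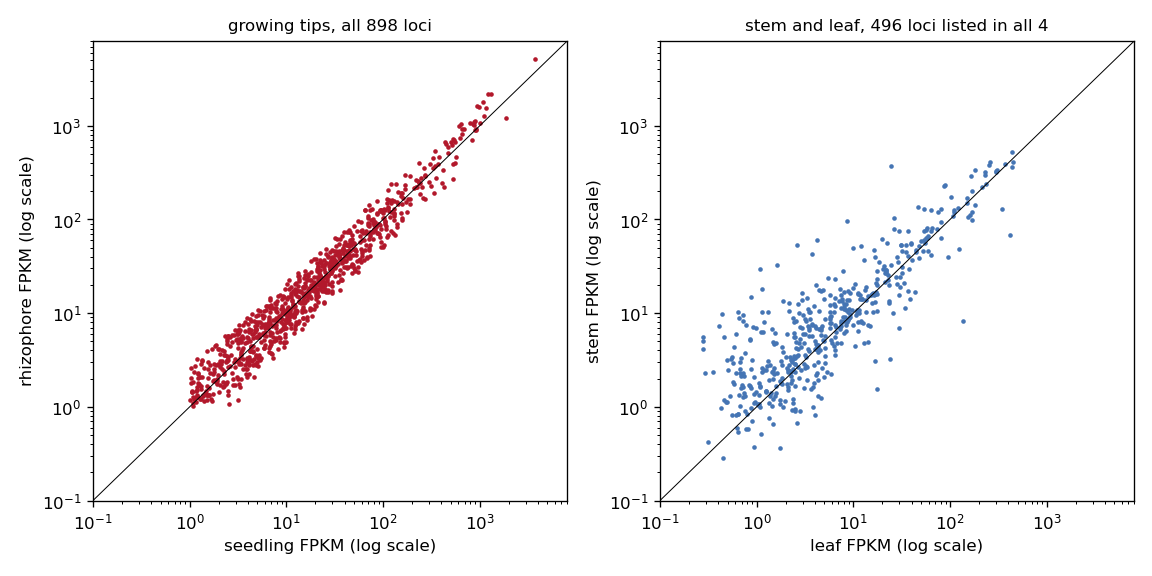
Left, rhizophore against seedling FPKM (both log scales) for the 898 loci, of which 510 lie above the line of equality. Right, stem against leaf FPKM for the 496 loci listed in all 4 libraries, of which 342 lie above the line.

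Among the loci listed in all 4 libraries, a few had large differences between stem and leaf. Contig 049651 from 3004 to 4448 had 155 FPKM in the rhizophore (151 to 158) and 173 FPKM in the seedling (165 to 180.5), against 2.64 FPKM in the leaf (2.12 to 3.16) and 53.7 FPKM in the stem (51.2 to 56.2). On contig 052468 from 151 to 1917 the rhizophore had 69.4 FPKM and the seedling 90.3 FPKM, against 1.07 FPKM in the leaf and 29.3 FPKM in the stem. In FPKM these loci were low in the leaf and at intermediate level in the stem. Under TPM their separations were only 0.28 and 0.01. Implied fragments scaled to the library total were higher in the stem than in the seedling for both, and than in the rhizophore for contig 052468. The reverse order of leaf and stem was seen on contig 052087 from 28 to 1398. It had 85.3 FPKM in the rhizophore and 72.5 FPKM in the seedling, against 17.6 FPKM in the leaf and 1.55 FPKM in the stem. Contig 104925 from 1 to 1026 had the largest excess of leaf over stem among the loci listed in all 4 libraries, 3.89, but 95.7% of its rhizophore FPKM and 97.8% of its seedling FPKM came from pieces of at most 160 bp, and the stem locus covered 907 bp.

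In length and position the set was close to all merged loci. The median length was 949.5 bp (quartiles 519 and 2029 bp), against 1014 bp (549 and 2038.5 bp) over all merged loci of at least 300 bp. By length the set made up 3.81% of the merged loci from 300 to under 600 bp, 3.19% from 600 to under 1200 bp, 3.34% from 1200 to under 2400 bp and 3.40% from 2400 bp, all near the 3.45% of the whole. Length went with listing, since 27.7% of the 285 shortest loci of the set and 83.1% of the 177 longest were listed in all 4 libraries. A start within the first 10 bp of the contig was found in 36.9% of the set and 39.3% of all. By the highest FPKM of any library, the set made up 3.68% of the loci from 1 to under 10 FPKM, 3.76% from 10 to under 100, 3.57% from 100 to under 1000 and 5.52% (16 of 290) from 1000 FPKM.

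The 898 loci lay on 883 contigs, 15 of which carried 2 of them and none more. Of the loci, 651 had no other merged locus of at least 300 bp on the contig, so their surroundings could not be examined. The other 247 had 274 neighbours, counted once for each pair, of which 20 (7.30%) were themselves in the set, against 3.61% of all loci with a neighbour. The 252 distinct neighbours outside the set had a median separation of -0.45, against -0.55 over all loci with a neighbour.

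In 10 of 3855 adjacent pairs both loci were in the set, at gaps of between 71 and 1977 bp. Whether such pairs are parts of 1 gene was not tested, since no transcript structure is given. On contig 043580 both separations were above 3, as on contig 102572 (3.01 and 4.09). The first locus of contig 043580, from 62 to 2313, had 192 FPKM in the rhizophore and 152 FPKM in the seedling, against 4.38 FPKM in the leaf and 17.8 FPKM in the stem, and its second, described above, followed after a gap of 1140 bp. The stem was thus well above the leaf in the first locus (a difference of 1.80) and much less so in the second (0.36).

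The highest levels of a pair were on contig 078813, named after its values had been seen. From 1 to 311 it had 468 FPKM in the rhizophore and 566 FPKM in the seedling, against 168 FPKM in the leaf and 99.8 FPKM in the stem. From 506 to 1355 it had 205 FPKM in the rhizophore and 113 FPKM in the seedling, against 47.4 FPKM in the leaf and 39.0 FPKM in the stem.

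On contig 104468 the pair was weaker, with separations of 1.01 from 8246 to 8734 and 1.39 from 8882 to 14389. Contig 077082 carried 2 loci of the set with another between them. From 243 to 4768 the level was 25.1 FPKM in the rhizophore and 31.8 FPKM in the seedling, against 7.33 FPKM in the leaf and 6.76 FPKM in the stem, and the seedling interval reached from 0 to 495 FPKM. From 7882 to 9927 it was 15.3 FPKM in the rhizophore and 9.29 FPKM in the seedling, against 0.53 FPKM in the leaf and 1.31 FPKM in the stem. The locus between them, also named after its values had been seen, from 6097 to 7274, had 5.14 FPKM in the rhizophore and 11.8 FPKM in the seedling and was not listed in leaf or stem, but missed the rule because its tips differed by 1.06. The values of all 3 loci were thus higher in both tips, with the seedling value of the first poorly known. The only other locus with a locus of the set directly on each side, on contig 102764 from 5857 to 7081, was not raised, with 0.45 FPKM in the rhizophore and 1.56 FPKM in the seedling, against 1.197 FPKM in the leaf and 1.10 FPKM in the stem.

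The loci nearest the threshold lay close to each other on its sides. Contig 054147 from 39 to 486, just inside, had 10.4 FPKM in the rhizophore and 14.6 FPKM in the seedling, against 4.08 FPKM in the leaf and 4.70 FPKM in the stem. Contig 044175 from 2 to 1018, also just inside, had 10.99 FPKM in the rhizophore and 17.9 FPKM in the seedling, against 0 in the leaf, where it was not listed, and 4.99 FPKM in the stem. Just outside were contig 064597 from 39 to 1635, with 38.9 FPKM in the rhizophore and 40.2 FPKM in the seedling against 13.4 FPKM in the leaf and 19.0 FPKM in the stem, and contig 083064 from 1 to 1294, with 49.3 and 40.5 FPKM in the same tips against 3.46 FPKM in the leaf and 19.8 FPKM in the stem. The intervals of both tips lay above those of leaf and stem in the loci outside as well.

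The rule found 898 loci for the tips, against 479 (1.84%) for the mirrored rule, with leaf and stem at least 1 above both tips and within 1 of each other. The median separation was 1.57 in the tip set and 1.46 in the leaf and stem set, and the median length 949.5 bp and 787 bp. Of the tip loci 55.2% were listed in all 4 libraries, against 62.4% of the leaf and stem loci. In 6 adjacent pairs a locus of one set lay beside a locus of the other. The excess of the tip set over its mirror image is a count from single libraries and was not tested. The limit of 1 within a pair also did not act alike on the 2 rules. Over all merged loci the tips lay within 1 of each other in 74.1%. Stem exceeded leaf by at least 1 in 18.7% and leaf exceeded stem by as much in 18.8%. With TPM the tip set fell to 185 loci, and no mirrored count is given for that scaling.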

How the data were processed

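RNA was sequenced from 4 tissues, with 1 library for each. After removal of the leading bases of every read, the authors mapped the libraries to their draft contigs with TopHat and assembled and measured transcripts with Cufflinks, library by library. The deposited FPKM of a locus comes with interval bounds in the same unit, and every locus has the status OK. Filters were not given in the sources used here. Contig names are those of the tables, positions count from 1, and no genome sequence was used.

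Loci were merged and summed in Python 3.11.15 with pandas 2.3.3 and numpy 2.4.6, and the rule in the report was applied with a pseudocount of 1, which understates the change of low loci. The computation was tested on simulated data. Summed bounds of several loci are not exact intervals. Fragments per locus were computed from the relative width of the interval, as the square of 2 over (upper bound - FPKM) / FPKM, which understates them where the interval was widened for other reasons. Library totals came from the line of fragments per FPKM on length, through the highest locus of each 50 bp bin of length between 400 and 3000 bp. For the floor, the FPKM per fragment was taken from the tip library where it was higher, after scaling by the totals.

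No test was made, because each tissue has 1 library. Named loci were the 10 largest separations among loci listed in all 4 libraries, the 5 largest among the others, the 6 highest lower tip values, the 4 longest, those on the 3 contigs with most loci, the 3 with the largest stem excess and the 3 with the largest leaf excess among those listed in all 4, and 2 on each side of the threshold. Loci added later are marked. The rule, the loci and the settings were chosen with earlier results of these data known. Alternatives varied the pseudocount, scaling, length, separation, tip difference, level, overlap and summing.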

Additional observations from a re-analysis of the deposited data

How the results depend on the processing

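The number of raised loci, 898 as reported, depended on the processing. It was 493 with a pseudocount of 5, 295 at a separation of at least 2, 579 with at least 10 FPKM in one library and 185 with FPKM rescaled to TPM over all loci. The TPM divisor lay 0.63 (rhizophore) and 0.38 (seedling) above, and 0.41 (leaf) and 0.60 (stem) below, its log2 mean, and the loci shorter than 300 bp make most of that difference, since a common sum over merged loci of at least 300 bp gave 932, among them 889 of the reported loci, and median-of-ratios factors gave 816, among them 809. Under the other planned settings the number lay between 611 (tips within 0.5) and 1161 (no limit on the tip difference). Settings chosen after seeing the data gave 903 when only loci of at least 300 bp were merged (814 of the reported loci shared), 456 for span-matched loci, 298 for the floor with TPM and 529 for implied fragments scaled to the library total in place of FPKM. Implied fragments understate high values. On contig 043580 from 62, for example, the rhizophore implied 1995 fragments at 192 FPKM and the stem 1252 at 17.8 FPKM. The 476 loci with intervals apart became 312 of 322 with at most 1 locus per library and 196 of 198 when span-matched, and the 737 past the floor became 829 with 5 fragments and 668 with 22.

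The share of loci with the stem above the leaf, 48.4% of 898, was 44.9% with a pseudocount of 0.1, 58.8% with a pseudocount of 5, 43.2% with no minimum length, 58.6% from 600 bp, 43.4% at a separation of at least 2 and 62.9% with at least 10 FPKM in one library. It includes loci at 0 in both libraries, whose number these settings change. The share with the rhizophore above the seedling, 56.8%, was 52.5% at a separation of at least 2 and 42.7% under TPM. Of 44 named loci, 3 near the threshold changed sign under TPM, to -0.050 (contig 054147), -0.055 (contig 044175) and -0.17 (contig 064597), and none of the 44 did under either pseudocount or median-of-ratios factors. Most other separations also fell under TPM. Those of contigs 097087, 052468 and 049651 became 0.04, 0.01 and 0.28, below the threshold of 1, whereas that of contig 061868 was still 4.49. No paired analysis was possible because no tissue was replicated, and nothing could be left out in turn.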
